A study of Rattus norvegicus with 3 samples.

Results

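Homeobox transcription factor genes were read out across 3 salivary glands of the rat. The members were the genes whose name in the array files begins with Hox, Nkx, Meis, Pbx, Pitx, Pax, Barx, Dlx, Msx, Irx, Lhx, Prrx or Tgif, or with the prefix of the sine oculis family (Six2, Six5 and their relatives), and goes on as the names of those families do. Proteins that only interact with a family were left out. The rule found 74 genes on 84 probes, of 17435 named genes and 41012 probes on the array. No gene name passed it for Tgif, and Meis was represented by Meis3 alone. RNA came from the sublingual, submandibular and parotid glands of normal male Wistar rats aged 10 weeks, and each gland was hybridised once. The design text names 3 rats without assigning animals to arrays. With no replicates no test was made, and every difference below is one between arrays. In whole-gland RNA, fewer cells of a type and less RNA per cell cannot be told apart.

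Homeobox proteins bind DNA through a helical domain and act as selectors of position and cell type in the embryo. Genes of the Hox clusters are used in order along the body axis, low numbers at the head end, and the jaw mesenchyme of the first branchial arch is known to lack their expression. There, Dlx, Msx, Barx, Prrx, Pitx and Lhx genes pattern teeth and jaws. Pbx and Meis proteins are DNA-binding partners of Hox proteins.

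Promoter sequences are shown for 4 members that were at least 2-fold from the parotid on both other arrays, taken from those with an entry in the RefSeq promoter table (build GRCr8). The lower ones were taken from genes measured on all arrays, which leaves out Pax6, whose differences are bounds and whose window held TGACAG in 2 places. Each is the 250 bases before the annotated start, written 5′ to 3′ on the gene's strand, with motif matches in capitals. Nkx2-3 (chr1:252427106-252427355, plus strand) and Prrx1 (chr13:78204074-78204323, minus strand) were higher than in the parotid. Msx1 (chr14:77185552-77185801, plus strand) and Pitx3 (chr1:254955326-254955575, minus strand) were lower.
Nkx2-3: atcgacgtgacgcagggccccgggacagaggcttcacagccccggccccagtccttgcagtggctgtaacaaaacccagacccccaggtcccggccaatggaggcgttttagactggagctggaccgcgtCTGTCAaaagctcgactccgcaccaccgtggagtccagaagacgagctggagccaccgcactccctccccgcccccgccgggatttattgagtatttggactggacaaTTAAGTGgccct
Prrx1: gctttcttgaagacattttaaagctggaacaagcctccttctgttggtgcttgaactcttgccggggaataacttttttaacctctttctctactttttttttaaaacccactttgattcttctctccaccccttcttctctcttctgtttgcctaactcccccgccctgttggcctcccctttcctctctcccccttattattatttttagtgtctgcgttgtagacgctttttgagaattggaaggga
Msx1: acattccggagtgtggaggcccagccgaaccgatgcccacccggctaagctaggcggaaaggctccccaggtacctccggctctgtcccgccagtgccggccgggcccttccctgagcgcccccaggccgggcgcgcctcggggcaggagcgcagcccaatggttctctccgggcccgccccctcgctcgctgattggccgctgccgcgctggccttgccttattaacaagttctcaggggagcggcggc
Pitx3: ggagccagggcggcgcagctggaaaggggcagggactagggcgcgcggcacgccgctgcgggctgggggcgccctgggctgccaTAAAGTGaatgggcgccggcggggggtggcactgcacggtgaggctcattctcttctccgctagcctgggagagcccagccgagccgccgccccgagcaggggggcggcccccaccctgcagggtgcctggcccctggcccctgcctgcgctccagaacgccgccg
The motifs searched, on both strands, were TAATTA (a homeodomain core), TAATCC (bound by paired-like proteins such as Pitx), TGACAG (Meis and Tgif), TGATNNAT (Pbx with Hox) and TNAAGTG (Nkx2). The Nkx2-3 window held TGACAG, as its reverse complement, from 120 to 115 bases before the start, and TNAAGTG from 12 to 6 bases before it. The Pitx3 window held TNAAGTG from 166 to 160 bases before its start. The windows of Prrx1 and Msx1 held no match. Pbx2 and Six2 also met the 2-fold limit and had an entry. Their windows, not shown, held no match either, and with Pax6 they complete the 7 windows searched. Among 33469 RefSeq promoters of the same length, 15.8% held TGACAG and 9.89% held TNAAGTG, while 4.86% held TAATTA, 6.34% TAATCC and 7.96% TGATNNAT. A match describes the letters only.

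Levels are log2 processed signals relative to the 75th percentile of the array, and the error after a level is the spot error of the scanner software's error model on the log2 scale. It covers neither animals nor labelling. Repeated spots of a probe had a median SD of 0.09 on the sublingual, 0.08 on the submandibular-labelled and 0.09 on the parotid array. Levels of different probes are not compared, since probes differ in brightness for the same amount of RNA. Summed levels of marker lists do add different probes, so they are governed by the brightest and are compared between arrays only. A fold with 1 side not well above background is written "at least", because that side gives only a limit. The labels were checked against secretory markers. Of 8 mucous products, 5 were well above background on the sublingual, 6 on the submandibular-labelled and 2 on the parotid array. Their summed level was 1492, 1512 and 11.6 times the 75th percentile in the same order, nearly equal on the first arrays named. Of 8 parotid serous products, 6 were well above background on the sublingual, 5 on the submandibular-labelled and 8 on the parotid array. Their summed level was 95.7, 172 and 6969 times the 75th percentile. Of 14 products of the granular ducts, a feature of the male submandibular gland, 8 were well above background on the sublingual, 7 on the submandibular-labelled and 10 on the parotid array. Their summed level was 424, 545 and 1354 times the 75th percentile in the same order, and 424, 545 and 478 without Smr3a, which was high in the parotid alone (9.78). Klk1 was at 7.37, 7.72 and 7.54 and Klk1b3 at 7.98, 8.35 and 8.14, so the array labelled submandibular was highest for both kallikreins, by less than 1.5-fold. Because these products set it apart so little, the array is called submandibular-labelled. Across 10119 genes, which are not independent replicates, the sublingual and submandibular-labelled levels correlated with r = 0.991, against 0.923 for each of them with the parotid.

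Most of the members were at or near background. Of the 74 genes, 25 (33.8%) were well above background on the sublingual, 26 (35.1%) on the submandibular-labelled and 28 (37.8%) on the parotid array, against 63.0%, 61.8% and 63.8% of all named genes. In all, 24 were well above background on all 3 arrays, 2 on 2 arrays, 3 on 1 array and 45 on none. Those on none included Lhx6 and Lhx8, known from the jaw mesenchyme of the mouse, as well as Dlx2, Dlx3, Msx2, Nkx2-5, Pax8, Six4 and all 6 members of the Hoxd cluster.

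**Figure D1:**
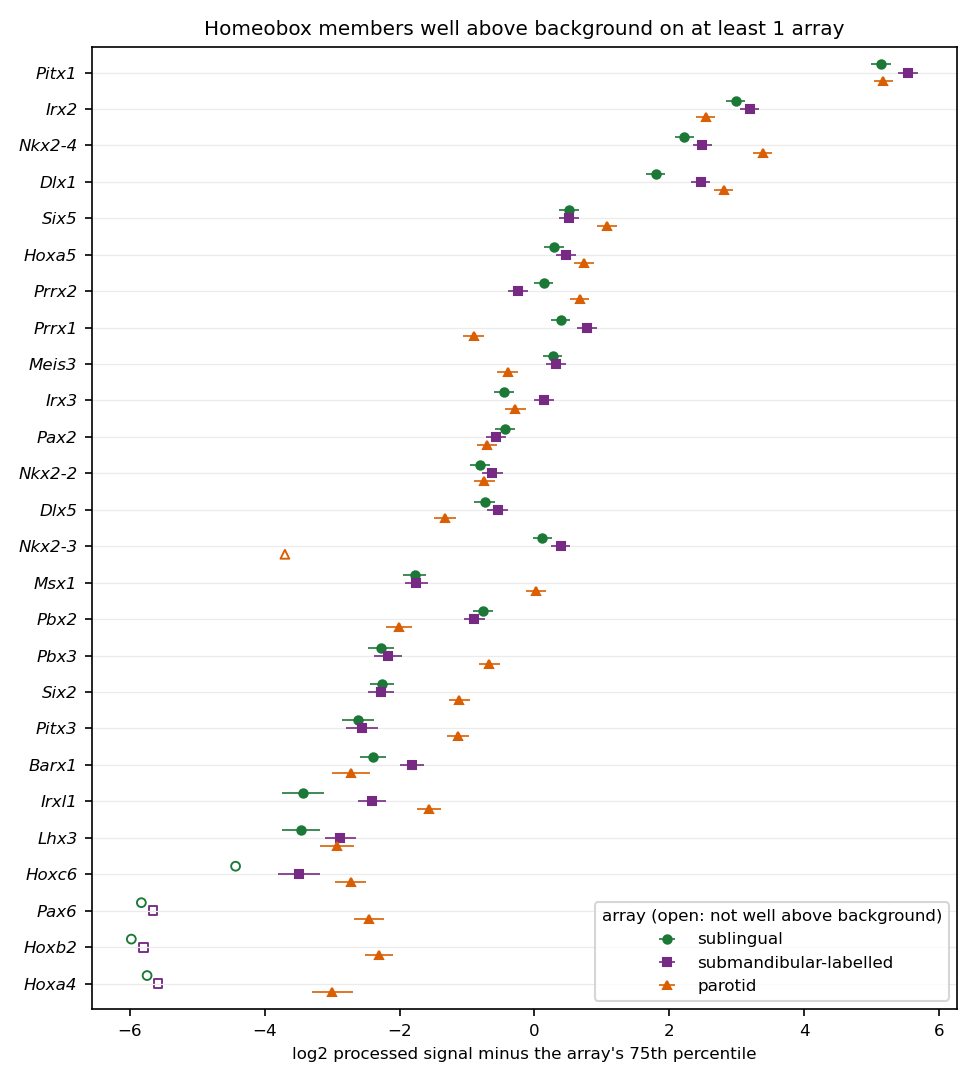
Levels of 26 of the 29 members well above background on at least 1 array (log2 processed signal minus the array's 75th percentile), 1 point per array with the spot error as a bar; open points were not well above background. Rows are sorted by mean level for display only. The sublingual and submandibular-labelled points lie close together for most members, and Nkx2-3 is separated furthest from its parotid point among members measured on 2 or more arrays.

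Nkx2-3 was far above its parotid level on both other arrays, and the 1 member shown to be past 4-fold. It encodes an NK2 homeodomain factor, known in the mouse from the spleen, the gut and the maturation of the sublingual gland. Its level was 0.12 ± 0.15 in the sublingual, 0.39 ± 0.15 in the submandibular-labelled and -3.70 in the parotid gland, where it was not well above background. Both other arrays were high and the parotid array was at background. Nkx2-3 was at least 11.7-fold (sublingual) and at least 14.1-fold (submandibular-labelled) higher than in the parotid, while the sublingual and submandibular-labelled levels differed by -0.27 ± 0.21. Its probe lay on chromosome 1 from 247222185 to 247223726 (rn4, the build of the files, minus strand). That span of 1542 bases is longer than the 60 bases of most member probes, and exon positions were not examined. The probe's strand is opposite to that of the gene in GRCr8, which among 49 members with both strands given also held for Six2 and Six3 and for no other, and which strand of the locus the probe reads was not settled.

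Nkx2-4 and Nkx2-2, from the same family, did not share this pattern. Nkx2-4, a close relative of the thyroid factor Nkx2-1, was at 2.22 ± 0.14 in the sublingual, 2.49 ± 0.14 in the submandibular-labelled and 3.38 ± 0.14 in the parotid gland. It was 2.23-fold (sublingual) and 1.86-fold (submandibular-labelled) lower than in the parotid. Nkx2-2, known from the ventral neural tube and the pancreatic islets, was almost level at -0.80 ± 0.15, -0.62 ± 0.15 and -0.74 ± 0.15 in the same order. Of the 10 Nkx members, Nkx1-2, Nkx2-5, Nkx2-6, Nkx2-9 (now Nkx2-8), Nkx6-1 and Nkx6-2 were not well above background on any array.

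Msx1, a repressor in jaw and tooth mesenchyme that acts downstream of BMP signals, stood highest in the parotid. Its level was -1.78 ± 0.17 in the sublingual, -1.75 ± 0.17 in the submandibular-labelled and 0.02 ± 0.15 in the parotid gland. The sublingual and submandibular-labelled arrays were both low, 3.48-fold (sublingual) and 3.42-fold (submandibular-labelled) lower than in the parotid, with log2 differences of -1.80 ± 0.22 and -1.77 ± 0.23. Its probe lay on chromosome 14 from 78260990 to 78261049 (rn4, plus strand).

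The paired-related genes Prrx1 and Prrx2, which mark embryonic limb and face mesenchyme, went opposite ways. Prrx1 was at 0.39 ± 0.15 in the sublingual, 0.78 ± 0.14 in the submandibular-labelled and -0.90 ± 0.15 in the parotid gland. It was 2.44-fold (sublingual) and 3.21-fold (submandibular-labelled) higher than in the parotid. Prrx2 was at 0.14 ± 0.15, -0.24 ± 0.15 and 0.67 ± 0.15 in the same order of glands, 1.45-fold (sublingual) and 1.88-fold (submandibular-labelled) lower than in the parotid. Each of these differences was larger than its spot error (0.21 on the log2 scale).

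Among the Pbx genes, partners of Hox proteins, Pbx2 was higher and Pbx3 lower than in the parotid. Pbx2 was at -0.76 ± 0.15 in the sublingual, -0.89 ± 0.15 in the submandibular-labelled and -2.01 ± 0.19 in the parotid gland. That is 2.38-fold (sublingual) and 2.17-fold (submandibular-labelled) higher than in the parotid. Pbx3 was at -2.27 ± 0.19, -2.17 ± 0.21 and -0.67 ± 0.16 in the same order, 3.04-fold (sublingual) and 2.84-fold (submandibular-labelled) lower than in the parotid. A further Pbx3 probe was well above background in the parotid (-2.53) and on neither other array, and its last probe was not well above background anywhere. Meis3, which binds beside Pbx and Hox proteins, was at 0.27 ± 0.15, 0.32 ± 0.15 and -0.40 ± 0.15, 1.59-fold (sublingual) and 1.64-fold (submandibular-labelled) higher than in the parotid.

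Few Hox genes were measured. Of 22 members from the 4 clusters, 1 was well above background on all arrays and 18 on none. Hoxa5, known from lung and neck development, was at 0.29 ± 0.15 in the sublingual, 0.47 ± 0.15 in the submandibular-labelled and 0.73 ± 0.15 in the parotid gland. Its differences from the parotid were -0.44 ± 0.21 (sublingual) and -0.26 ± 0.21 (submandibular-labelled), the second of which turned to 0.05 with arrays centred on the median, and its other probe was not well above background on any array. Hoxb2, a hindbrain and second-arch gene, was at -5.98 in the sublingual, -5.79 in the submandibular-labelled and -2.31 ± 0.20 in the parotid gland, and was not well above background outside the parotid. It was at least 2.70-fold (sublingual) and at least 2.41-fold (submandibular-labelled) lower than in the parotid. Hoxc6 was at -4.43 in the sublingual, -3.49 ± 0.31 in the submandibular-labelled and -2.73 ± 0.23 in the parotid gland, and was not well above background in the sublingual gland. It was at least 2.01-fold (sublingual) and 1.70-fold (submandibular-labelled) lower than in the parotid. The sublingual bound fell under 2-fold with normexp correction, quantile normalization and median centring. A further Hoxc6 probe, named through RefSeq only, was not well above background on any array. Hoxa4 had processed signals of 4.55 in the sublingual gland and 4.76 on the submandibular-labelled array, neither well above background, and 23.3 in the parotid, which puts the log2 differences from the parotid at or below -0.74 and -0.58. Hoxa4 and Hoxb2 are counted as measured only through the parotid array, so their direction was fixed by that. No Hox member numbered above 6 was well above background on any array, but that depends on the names in the files. Outside the name rule, Hoxb6 and Hoxb7 were well above background on all arrays. Hoxc11 was flagged so in the sublingual gland alone, at a level like that on the submandibular-labelled array (below).

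**Figure D2:**
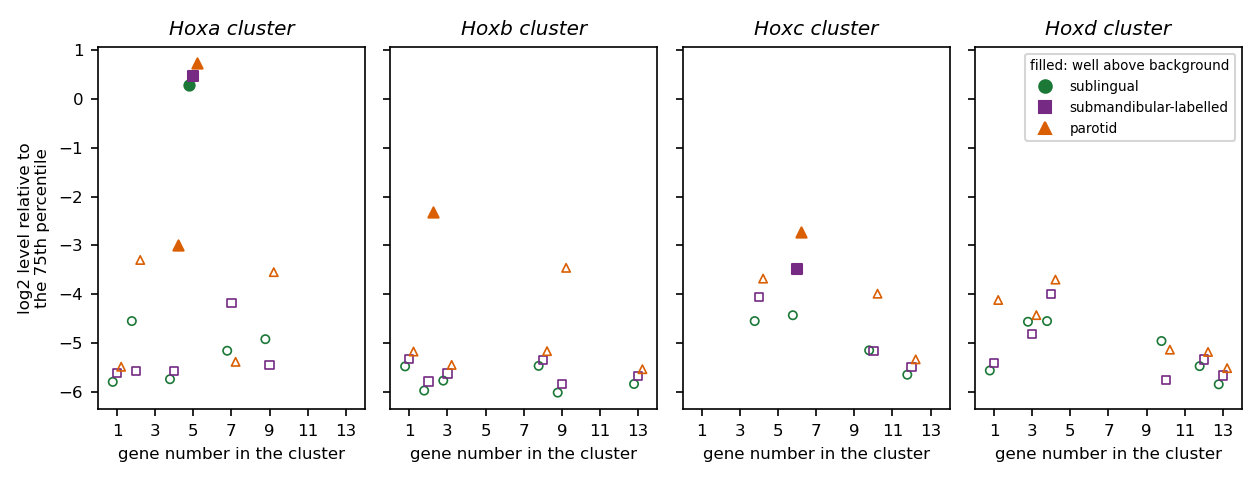
Level of each Hox member (log2 processed signal minus the array's 75th percentile) by its number in the cluster, 1 panel per cluster and 1 marker per array; filled markers were well above background. Hoxa5 is filled on all arrays, Hoxc6 on the submandibular-labelled and parotid arrays, and Hoxa4 and Hoxb2 on the parotid array alone.

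The Pitx genes act in the oral ectoderm and pituitary. Pitx1 was at 5.14 ± 0.14 in the sublingual, 5.54 ± 0.14 in the submandibular-labelled and 5.18 ± 0.14 in the parotid gland. It was well above background in every gland, and its differences from the parotid, -0.03 ± 0.20 and 0.36 ± 0.20, were within 1.5-fold. Pitx3, known from lens and midbrain dopamine neurons, was at -2.62 ± 0.23, -2.56 ± 0.24 and -1.13 ± 0.17 in the same order, 2.80-fold (sublingual) and 2.68-fold (submandibular-labelled) lower than in the parotid.

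The sine oculis family and the Pax genes act in eye, ear, muscle and kidney. Six2, which keeps kidney progenitors undifferentiated, was at -2.26 ± 0.18 in the sublingual, -2.27 ± 0.19 in the submandibular-labelled and -1.12 ± 0.16 in the parotid gland. It was 2.21-fold (sublingual) and 2.23-fold (submandibular-labelled) lower than in the parotid, and its probe is 1 of the 3 on the opposite strand. Six5 was at 0.52, 0.52 and 1.08 in the same order, less than 2-fold apart. Pax2, a kidney and ear gene, was at -0.43 ± 0.15, -0.58 ± 0.15 and -0.71 ± 0.15, also less than 2-fold apart. Pax6, the eye and islet factor, was at -5.83 in the sublingual, -5.66 in the submandibular-labelled and -2.45 ± 0.22 in the parotid gland, and was well above background in the parotid alone. It was at least 2.44-fold (sublingual) and at least 2.19-fold (submandibular-labelled) lower than in the parotid. Like Hoxa4 and Hoxb2, Pax6 is counted as measured only through the parotid array, so its direction was fixed by that.

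Of the Iroquois genes, which mark territories of the neural plate, heart and limb, Irx2 was at 2.98 in the sublingual, 3.19 in the submandibular-labelled and 2.54 in the parotid gland. Irx3 was at -0.46, 0.14 and -0.28 in the same order, and neither gene reached 2-fold. Irxl1, by its name in the files an Iroquois-like gene, was at -3.43 ± 0.31, -2.41 ± 0.21 and -1.56 ± 0.17. It was 3.65-fold (sublingual) and 1.80-fold (submandibular-labelled) lower than in the parotid. In the sublingual gland Irxl1 was 2.03-fold lower than on the submandibular-labelled array, the 1 member at least 2-fold apart between those arrays. That log2 difference was -1.02 ± 0.37 and shrank to -0.22 with normexp correction. The sublingual level lay close to the lowest well above background there (-3.74). Dlx1, a jaw and forebrain gene, was at 1.80 ± 0.14, 2.47 ± 0.14 and 2.81 ± 0.14, 2.01-fold (sublingual) and 1.26-fold (submandibular-labelled) lower than in the parotid. Dlx5, a jaw and bone gene, differed from the parotid by 0.58 ± 0.22 (sublingual) and 0.77 ± 0.22 (submandibular-labelled) on the log2 scale. Barx1, a stomach and molar gene, was at -2.39 ± 0.20, -1.82 ± 0.18 and -2.72 ± 0.29, 1.26-fold and 1.87-fold higher. Lhx3, a pituitary gene, was at -3.46 ± 0.28, -2.88 ± 0.23 and -2.92 ± 0.25, with log2 differences from the parotid of -0.54 ± 0.38 and 0.05 ± 0.34.

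**Figure D3:**
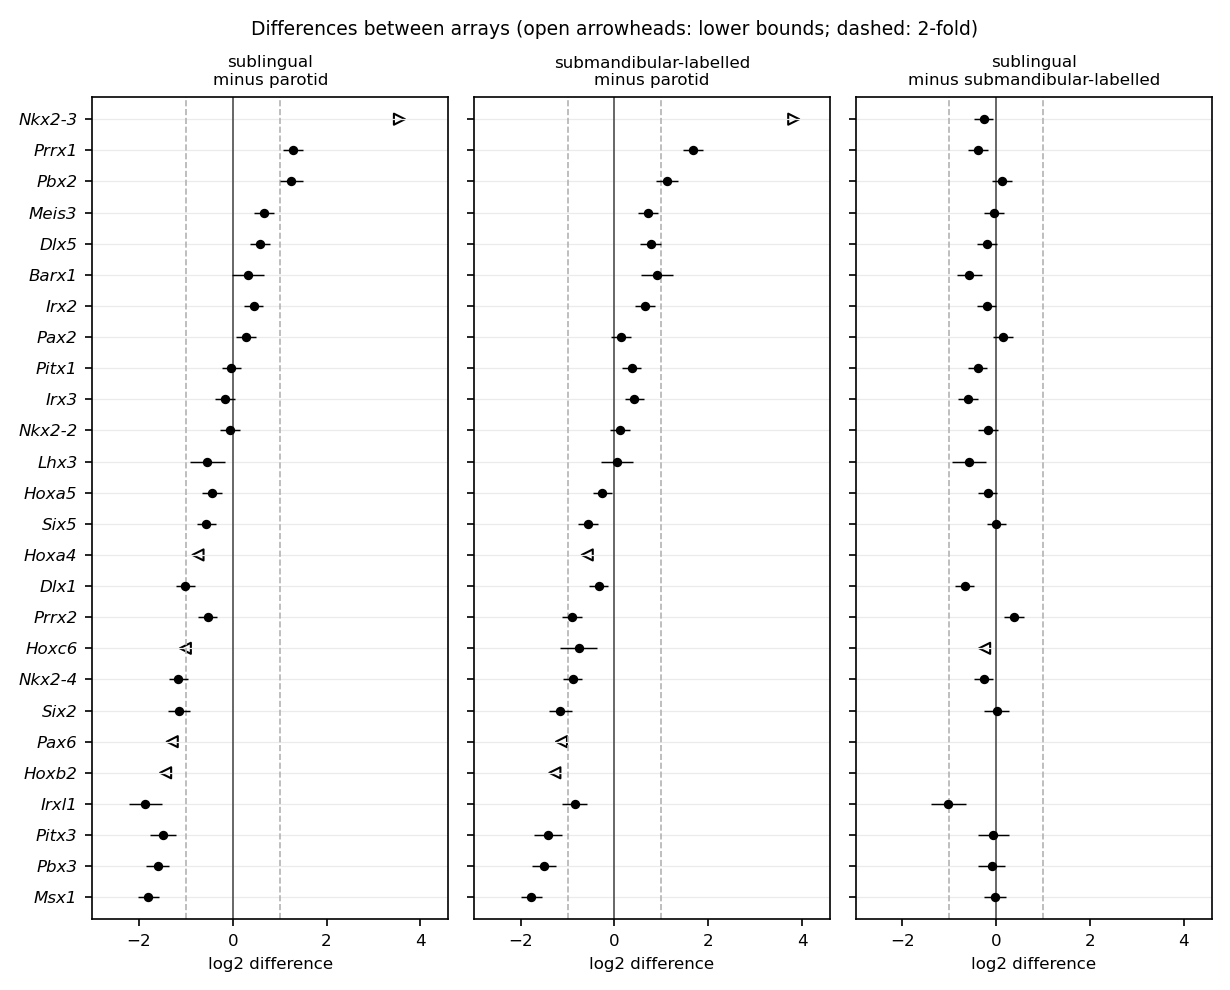
Log2 differences of 26 of the 29 members in the 3 pairs of arrays, with the combined spot error as bars, open arrowheads for lower bounds and dashed lines at 2-fold. In both comparisons with the parotid Nkx2-3 lies furthest to the right and Msx1, Pbx3 and Pitx3 lie left of the dashed line, while the comparison of sublingual with submandibular-labelled places Irxl1 alone past it.

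Counted over the members, more were at least 2-fold lower than higher against the parotid, though the excess depended on the setting. On the sublingual array it shrank to 2 lower against 1 higher with normexp correction, and on the submandibular-labelled array it was not kept under every setting. Between the sublingual and parotid arrays 29 members could be compared, of which 3 were at least 2-fold higher (background 12.2% of 11661 genes) and 10 at least 2-fold lower (background 12.5%). Between the submandibular-labelled and parotid arrays, of 29 compared, 3 were at least 2-fold higher (background 10.8% of 11645) and 6 at least 2-fold lower (background 11.4%). Between the sublingual and submandibular-labelled arrays, of 26 compared, 0 were at least 2-fold higher (background 1.19% of 11162) and 1 lower (background 0.609%). At 4-fold, Nkx2-3 alone was higher than in the parotid on each array (background 3.01% and 2.85%), no member was shown to be lower (background 2.9% and 2.86%), and none was shown to differ between the sublingual and submandibular-labelled arrays (background 0.152% higher and 0.0896% lower). Hoxb2, Pax6, Hoxa4 and Hoxc6 have bounds here, which leave larger differences possible. Median differences of the compared members were -0.54, -0.26 and -0.20 in the 3 comparisons, against 0.05, 0.08 and -0.04 over all genes compared. A member seen on 1 side only had to differ, so these counts describe. With both arrays required well above background, 2 of 24 were higher (background 12.0%) and 7 lower (background 10.1%) for sublingual minus parotid, and 2 of 25 higher (background 10.4%) and 4 lower (background 9.12%) for submandibular-labelled minus parotid. The 24 members measured on all arrays split into 8 above and 16 below the parotid for the sublingual gland (median -0.49), and 12 above and 12 below for the submandibular-labelled array (median -0.02). The comparisons with the parotid share its array. Normexp background correction left 1 higher and 2 lower for sublingual minus parotid (all genes 9.22% and 5.05%). For submandibular-labelled minus parotid it left 2 higher and 1 lower (all genes 7.59% and 4.76%). Median centring gave 3 higher and 6 lower for the sublingual gland (all genes 18.6% and 8.38%). For the submandibular-labelled array it gave 7 higher and 3 lower (all genes 19.4% and 7.06%), where quantile normalization gave 4 higher and 4 lower (all genes 10.9% and 10.2%).

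**Figure D4:**
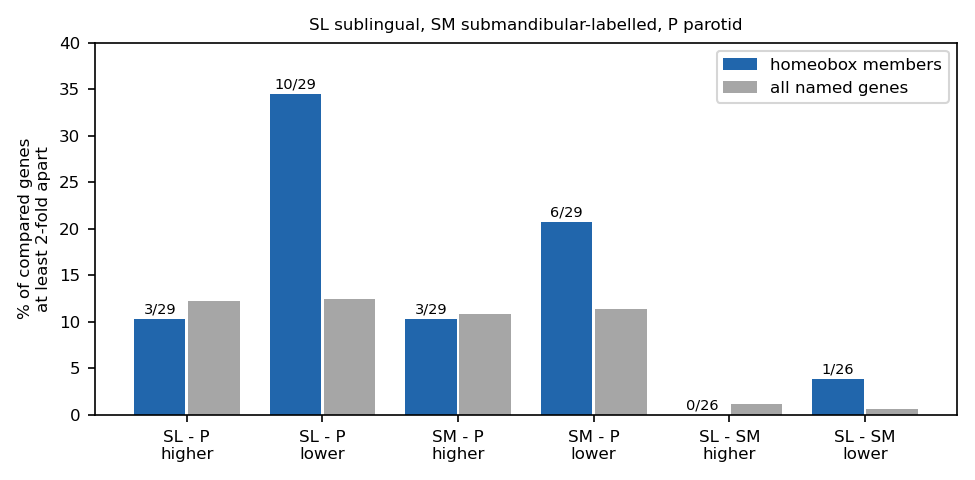
Percent of compared genes at least 2-fold higher or lower in each pair of arrays, for the homeobox members (blue, counts above the bars) and for all named genes (grey). The blue bars exceed the grey ones for lower levels in all 3 pairs of arrays, and are below them for higher levels.

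The share of lower genes moved with signal strength. Among all genes with a mean level under -2, 24.6% were at least 2-fold lower and 5.89% higher in the sublingual gland than in the parotid, and of 8 members in that range 5 were 2-fold lower. Among all genes from -2 to 0, 14.5% were 2-fold lower and 10.8% higher, and 3 of 12 members there were lower and 2 higher. Among all genes at 0 and over, 6.44% were 2-fold lower and 15.6% higher, and 2 of 9 members there were lower and 1 higher. For submandibular-labelled minus parotid, 21.5% of genes under -2 and 5.95% at 0 and over were 2-fold lower, against 3 of 8 and 0 of 9 members. The part of signal strength in the members' count was not tested.

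Markers of other cell types moved as well. Of 8 fibroblast markers, 5 were at least 2-fold lower than in the parotid on the sublingual array and 5 on the submandibular-labelled array, where the shares over all genes are the 12.5% and 11.4% above. Their summed level was 80.8 in the sublingual, 69.6 in the submandibular-labelled and 203 in the parotid gland, in multiples of the array's 75th percentile, and Postn was not well above background outside the parotid. The summed level of 5 myoepithelial and basal markers was 51.9, 62.6 and 21.1 in the same order. Of 8 skeletal muscle markers, 3 were well above background on each array: the actin Acta1 was 4.03-fold (sublingual) and 5.78-fold (submandibular-labelled) higher than in the parotid, the troponin Tnnt3 was 1.42-fold (sublingual) and 2.10-fold (submandibular-labelled) lower than in the parotid and Mb was less than 2-fold apart, while Ckm, Myh4, Myod1, Myog and Myf6 were not well above background on any array. Of 3 compared lymphocyte markers (7 on the array), 0 were at least 2-fold higher and 3 lower on the sublingual array, and 0 higher and 3 lower on the submandibular-labelled array. Of 3 compared adipocyte markers (6 on the array), 0 were at least 2-fold higher and 2 lower on the sublingual array, and 0 higher and 3 lower on the submandibular-labelled array. Of 4 compared Schwann cell markers (5 on the array), 0 were at least 2-fold higher and 2 lower on the sublingual array, and 0 higher and 3 lower on the submandibular-labelled array. Of 5 compared endothelial markers (6 on the array), 0 were at least 2-fold higher and 2 lower on the sublingual array, and 0 higher and 0 lower on the submandibular-labelled array. Of 6 compared duct epithelium markers (6 on the array), 4 were at least 2-fold higher and 2 lower on the sublingual array, and 4 higher and 0 lower on the submandibular-labelled array. The part of these cell types in the homeobox differences was not tested.

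Some relatives carry other names in the files and were named through RefSeq only. They were 15 probes of 14 genes, of which 7 probes were well above background on at least 1 array. Meis2, a partner of Pbx and Hox proteins in face and limb, was at -1.65 ± 0.16 in the sublingual, -1.55 ± 0.16 in the submandibular-labelled and 1.99 ± 0.14 in the parotid gland. The parotid alone was high, and Meis2 was 12.5-fold (sublingual) and 11.6-fold (submandibular-labelled) lower than in the parotid. Hoxb6 was at -2.12 ± 0.18, -2.01 ± 0.18 and -1.49 ± 0.17 and Hoxb7 at -2.69 ± 0.23, -2.39 ± 0.22 and -1.54 ± 0.17 in the same order, and Hoxb7 was 2.22-fold (sublingual) and 1.81-fold (submandibular-labelled) lower than in the parotid. Hoxc11 was flagged well above background in the sublingual gland alone (-3.56 ± 0.31), close to the lowest level measurable there. Its level on the submandibular-labelled array, -3.48 ± 0.33, was no lower but lacked the flag, so it does not set the sublingual gland apart from that array. Irx1 was at -0.12 ± 0.15, 0.51 ± 0.15 and 0.20 ± 0.15 and Tgif1, a corepressor of TGF-beta signalling, at -0.89 ± 0.15, -0.66 ± 0.15 and -1.32 ± 0.16. A further Six5 probe differed from the parotid by -0.65 and -0.55 on the log2 scale, against -0.56 and -0.56 for the member probe.

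Among 63 measured homeobox genes of other families, of 35 compared between the sublingual and parotid arrays, 2 were at least 2-fold higher and 9 lower (all genes 12.2% and 12.5%). The medians of the log2 differences were -0.63 and, for submandibular-labelled minus parotid, -0.50. Of 33 compared between the submandibular-labelled and parotid arrays, 3 were higher and 8 lower (all genes 10.8% and 11.4%). Among the lower genes Zeb2, Lmx1b, Bsx and Gsx1 were well above background in the parotid alone, as was Hmx2, 2-fold lower on the sublingual array only. Among the higher genes Isl2 and, on the submandibular-labelled array, Cux2 were not well above background in the parotid. Their directions were fixed by that, as for every gene given as "at least" in the lists below. Isl2, a motor neuron factor, had log2 differences from the parotid of at least 2.83 (sublingual) and 2.70 (submandibular-labelled). Bsx, a hypothalamic factor, was at least 6.14-fold (sublingual) and at least 5.49-fold (submandibular-labelled) lower than in the parotid. Lmx1b, a limb and kidney factor, was at least 4.49-fold (sublingual) and at least 4.02-fold (submandibular-labelled) lower than in the parotid.

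Among 30 measured partners and chromatin regulators, of 25 compared between the sublingual and parotid arrays, 3 were at least 2-fold higher and 3 lower (all genes 12.2% and 12.5%). The medians of the log2 differences were -0.05 and, for submandibular-labelled minus parotid, 0.06. Of 25 compared between the submandibular-labelled and parotid arrays, 3 were higher and 3 lower (all genes 10.8% and 11.4%). Dach2, a cofactor of the sine oculis family, was 4.83-fold (sublingual) and 3.37-fold (submandibular-labelled) lower than in the parotid. The corepressor Tle1 was 2.87-fold (sublingual) and 2.17-fold (submandibular-labelled) lower than in the parotid. Eya2, which pairs with the same factors, was 2.02-fold (sublingual) and 2.46-fold (submandibular-labelled) higher than in the parotid.

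Retinoic acid sets Hox domains in the embryo. Among 17 measured genes of its handling, of 13 compared between the sublingual and parotid arrays, 2 were at least 2-fold higher and 3 lower (all genes 12.2% and 12.5%). The medians of the log2 differences were -0.40 and, for submandibular-labelled minus parotid, -0.32. Of 14 compared between the submandibular-labelled and parotid arrays, 3 were higher and 2 lower (all genes 10.8% and 11.4%). The receptor Rarg was 5.14-fold (sublingual) and 4.26-fold (submandibular-labelled) lower than in the parotid. The receptor Rxrg was 3.84-fold (sublingual) and 5.56-fold (submandibular-labelled) lower than in the parotid. The binding protein Crabp1 was 3.18-fold (sublingual) and 3.30-fold (submandibular-labelled) higher than in the parotid.

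Among 24 measured factors of salivary gland development, of 21 compared between the sublingual and parotid arrays, 4 were at least 2-fold higher and 6 lower (all genes 12.2% and 12.5%). The medians of the log2 differences were -0.49 and, for submandibular-labelled minus parotid, -0.50. Of 20 compared between the submandibular-labelled and parotid arrays, 3 were higher and 4 lower (all genes 10.8% and 11.4%). Tfap2b, a neural crest factor, was at least 249-fold (sublingual) and at least 223-fold (submandibular-labelled) lower than in the parotid. Sox2, a progenitor factor, was at least 126-fold (sublingual) and at least 168-fold (submandibular-labelled) higher than in the parotid. Foxa1, a pioneer factor of endoderm, was at least 4.48-fold (sublingual) and at least 2.94-fold (submandibular-labelled) higher than in the parotid.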

How the data were processed

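Each gland's RNA (500 ng) was hybridised to 1 Agilent array. The deposited intensity values are from Agilent Feature Extraction 10.1.1.1 on design 014879 with rn4 coordinates, per the file headers. The authors' value table holds a linear ratio for each spot; the steps behind it are not given in the sources used here. Deposited flags mark spots well above background, saturated or outlying, and no member spot was saturated or outlying.

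Levels were log2 of the processed signal, less the 75th percentile of all probes on that array. A gene was represented by its brightest probe. A dim side was set to the higher of its own level and the lowest level well above background (-3.74, -3.58 and -3.43 for sublingual, submandibular-labelled and parotid). RefSeq (GRCr8) matched 83 of 84 member probes. Pbxip1 and Paxx were left out. Some members are counted but not reported here by name or drawn. Full values were planned for members at least 2-fold apart and the brightest of each family, and in each outer list for the 3 genes furthest from the parotid on both arrays. Members and lists were chosen with earlier results of these data known. Counting was tested on simulated data. Alternatives were normexp (offset 50), quantile and median scaling, the deposited ratio, and other probe, outlier, bound and threshold rules. Tools were Python 3.11.15, numpy 2.4.6, pandas 2.3.3, matplotlib 3.10.9, R 4.3.3 and limma 3.58.1. The number of arrays limits the precision, and slide position and gland cannot be told apart.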

Additional observations from a re-analysis of the deposited data

How the results depend on the processing

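All 23 member differences of at least 2-fold kept their sign under the 6 or 7 alternatives run for each, and 5 (Nkx2-3 and Msx1 against the parotid on both arrays, Prrx1 on the submandibular-labelled array) stayed at least 2-fold under all. For the bounds among them (Nkx2-3, Hoxb2, Pax6 and, in the sublingual gland, Hoxc6) the sign could not turn. A bound was kept only in the direction of its bright side. Where both sides were measured, the bound and outlier rules could hardly alter a difference, so the kept signs rest on the other alternatives. Of 84 differences, 9 under 2-fold changed sign under at least 1. Normexp correction, whose offset of 50 draws dim signals together by construction, gave 1 member at least 2-fold higher and 2 lower for sublingual minus parotid (median -0.3595). It gave 2 higher and 1 lower for submandibular-labelled minus parotid, and 0 lower for sublingual minus submandibular-labelled. Under it Nkx2-3 differed from the parotid by 1.69 and 1.87. Median centring moved the all-gene median to 0.34 and 0.43 for the 2 comparisons with the parotid, against 0.10 and 0.12, and split all genes into 18.6% higher and 8.38% lower (sublingual) and 19.4% higher and 7.06% lower (submandibular-labelled). It gave 3 members higher and 6 lower for the sublingual gland (median -0.2966), and 7 higher and 3 lower for the submandibular-labelled array (median 0.0506). That median was -0.0873 with the median of a gene's probes and -0.0873 with both sides well above background; the cause was not tested. At 4-fold, 1 member was higher and 0 lower against the parotid on each array, and 0 lower between the sublingual and submandibular-labelled arrays. No paired analysis was possible because each gland has 1 array. Signal over background limits what can be said of 45 members.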
